A study of Mus musculus with 75 samples.

Results

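The genes described here encode the pulmonary surfactant proteins and other products that mark the alveolar type 2 cell. They were chosen by name, as the rows for Sftpa1, Sftpb, Sftpc, Sftpd, Abca3, Lamp3, Napsa, Slc34a2, Etv5 and Lpcat1, which makes 10 of the 55536 genes in the count table. They were followed in the inferior lung lobe of 75 male C57BL/6JRj mice by poly(A) RNA-seq, with 1 library per mouse. The bleomycin groups (BLEO-IPF mice) had received 1 intratracheal instillation of bleomycin sulphate at an age of 12 to 14 weeks and were killed on the day after it that names the group (D7, n = 10; D14, D21, D28 and D35, n = 12 each; D42, n = 7). The control group (CTRL, n = 10) carries the label Saline, and the figure legends of the paper describe intratracheal saline for it. The treatment text speaks of untreated mice, so the sources differ on whether these mice received an instillation. All groups, CTRL included, share strain, sex and the labelled age of 12 to 14 weeks, and no genetic modification is given for any of them. Since bleomycin was given at that age, mice killed on later days were older. The day on which the CTRL mice were killed is not labelled, so age and day cannot be told apart. BLEO-IPF mice entered the study only if their weight loss on day 6 was mild to moderate, so the bleomycin groups are a selected set. The paper also reports mortality among BLEO-IPF mice over the study, so each group holds only mice that survived to its day. The lungs were lavaged before the lobe was taken.

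Type 2 cells sit in the corners of the alveoli, where they make, store, secrete and recycle surfactant, the film of phospholipid and protein that lowers surface tension at the air-liquid interface. They pack surfactant into lamellar bodies, and they also serve as progenitors of the flat type 1 cells after injury. Bleomycin is a DNA-damaging drug that injures the alveolar epithelium and is followed in mice by inflammation and then fibrosis.

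Promoter sequences are printed for 4 of the members whose mean levels fell together on day 14, so that the genes can be compared letter by letter. Etv5 fell on day 14 as well, and its windows were searched but are not printed. The windows run from 250 bases before to 50 bases after the start given by RefSeq on GRCm38.p6, and 7 of the 10 members had an entry in that table. Sftpc, Sftpd and Napsa had none. Capitals mark matches, on either strand, to CAAGTG and CTCAAG (core letters given for Nkx2-1, the homeodomain factor of lung epithelium), TGTTTAC (the forkhead core) or GGAAGT (the ETS core, the family of Etv5); CTCAAG and CAAGTG share 4 letters and can overlap.
Sftpa1 (chr14:41131538-41131837, plus strand): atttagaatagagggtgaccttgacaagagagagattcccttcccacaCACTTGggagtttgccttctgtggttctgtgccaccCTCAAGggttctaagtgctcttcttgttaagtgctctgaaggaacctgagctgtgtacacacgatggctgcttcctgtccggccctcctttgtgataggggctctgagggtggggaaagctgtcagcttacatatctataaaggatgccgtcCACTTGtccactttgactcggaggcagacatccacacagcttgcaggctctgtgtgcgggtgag
Sftpb (chr6:72304360-72304659, plus strand): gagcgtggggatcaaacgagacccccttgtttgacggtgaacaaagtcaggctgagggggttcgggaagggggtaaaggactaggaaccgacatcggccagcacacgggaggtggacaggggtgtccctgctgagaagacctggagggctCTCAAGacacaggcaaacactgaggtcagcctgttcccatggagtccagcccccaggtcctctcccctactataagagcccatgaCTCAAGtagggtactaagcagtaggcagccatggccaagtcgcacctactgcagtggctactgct
Lamp3 (chr16:19706316-19706615, minus strand): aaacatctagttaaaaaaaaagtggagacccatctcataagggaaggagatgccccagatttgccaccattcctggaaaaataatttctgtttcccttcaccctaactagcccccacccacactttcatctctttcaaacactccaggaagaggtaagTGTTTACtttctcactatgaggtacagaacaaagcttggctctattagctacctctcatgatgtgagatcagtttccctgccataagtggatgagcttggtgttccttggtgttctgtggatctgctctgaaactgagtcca
Slc34a2 (chr5:53049103-53049402, plus strand): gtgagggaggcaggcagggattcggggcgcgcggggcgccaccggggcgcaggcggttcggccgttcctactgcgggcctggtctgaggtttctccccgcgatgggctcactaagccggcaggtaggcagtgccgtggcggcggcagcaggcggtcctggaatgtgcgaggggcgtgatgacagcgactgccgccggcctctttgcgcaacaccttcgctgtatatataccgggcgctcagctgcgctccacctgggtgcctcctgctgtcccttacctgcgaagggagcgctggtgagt
CTCAAG stood in the windows of Sftpa1 and Sftpb, CAAGTG in that of Sftpa1, TGTTTAC in those of Lamp3 and Etv5 and GGAAGT in an Etv5 window. The windows of Slc34a2, Abca3 and Lpcat1 held none of the 4 motifs. Of 32851 promoter windows of the same length in the table, 13.6% held CAAGTG, 15.9% CTCAAG, 3.65% TGTTTAC and 23.8% GGAAGT, and 45.8% held at least 1 of the 4. These shares are by window. Counted by gene, 4 of the 7 members held at least 1 motif in any of their windows. The members had 8 windows, 2 of them of Etv5, so the units differ. These matches describe the letters and do not show binding.

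The libraries held 9240291 to 14665247 counts in genes, with a median of 10677163. No member had fewer than 353 counts in any mouse, so counting error was small beside the spread between mice. All 10 members passed the filter on low counts, as did 16221 genes in all. Levels are given as CPM, the usual scaled counts that relate each gene to the total of its library, here after TMM scaling. Defining lung genes were abundant: Sftpc alone took a median of 1.37% of all counts in CTRL mice. No source says that the mice of a group were housed or treated separately, and the 6 comparisons with CTRL share the same 10 CTRL mice.

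In CTRL mice the members spanned a wide range of abundance. Per kilobase of exon, Sftpc, which encodes the small hydrophobic surfactant protein C, stood at 13423 CPM per kb. Sftpb, the gene of the other hydrophobic surfactant protein, followed with 1640 and Sftpa1, a collectin of the airspace, with 1329 CPM per kb. Slc34a2, the apical sodium-phosphate cotransporter, reached 405, Sftpd, the second surfactant collectin, 325 and Lamp3, a membrane protein of lysosomes and lamellar bodies, 187 CPM per kb. Lower values were found for Napsa, the aspartic protease napsin A that helps to process pro-surfactant protein B (132), Lpcat1, which remodels lysophosphatidylcholine to dipalmitoylphosphatidylcholine (91.9), Abca3, the phospholipid transporter of the lamellar body membrane (52.9), and Etv5, an ETS transcription factor needed to maintain type 2 cells (29.5). Together the 10 genes took a median of 2.58% of all counts in CTRL mice, 2.30% on D7, 1.35% on D14, 2.26% on D21, 2.54% on D28, 2.81% on D35 and 3.07% on D42.

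On day 14 after BLEO administration 6 of the 10 members were lower than in CTRL and none was higher (edgeR quasi-likelihood test with Benjamini-Hochberg adjustment over all genes; DESeq2 and the unadjusted p under 0.05 gave 6 and 0 as well). Among the 16221 genes tested, 29.9% were lower and 32.4% higher in the same comparison. The median log2 fold change (log2FC) of the 10 members was -0.68, whereas that of all genes was 0.01. In bulk lung RNA, fewer type 2 cells and less RNA per type 2 cell cannot be told apart.

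Among the surfactant proteins, Sftpa1 showed the largest fall of the 10 members. Its CPM was 3392 in the lowest, 3775 in the median and 4233 in the highest CTRL mouse, against 693, 1508 and 3460 on D14. All but 1 of the 12 D14 mice lay below every CTRL mouse (log2FC -1.19 ± 0.22 SE, adjusted p = 3.15e-06), and the D14 mean was 43.7% of the CTRL mean. Sftpc ranged from 12126 over 13751 to 15394 CPM in CTRL and from 3342 over 6910 to 13545 CPM on D14 (log2FC -0.88 ± 0.18, adjusted p = 2.75e-05). For this gene 10 of 12 D14 mice fell below the CTRL range. Sftpb went from 2776, 3220 and 3760 CPM to 1058, 2273 and 3324 CPM for the lowest, median and highest mouse (log2FC -0.59 ± 0.14, adjusted p = 0.000214), again with 10 of 12 mice under all CTRL mice.

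Sftpd behaved differently. Its lowest, median and highest CPM were 668, 768 and 929 in CTRL and 410, 767 and 1365 on D14, so that the D14 mice surrounded the CTRL range, with 5 mice below it and 3 above it (log2FC 0.01 ± 0.15, adjusted p = 0.964). Napsa, whose protein acts on surfactant protein precursors, had a similar pattern. It ran from 313 over 354 to 406 CPM in CTRL and from 198 over 382 to 497 CPM on D14, with 3 mice below and 4 above all CTRL mice (log2FC 0.06 ± 0.11, adjusted p = 0.661).

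Of the genes for phosphate and lipid handling, Slc34a2 fell most clearly on D14. It ran from 1655 over 2046 to 2347 CPM in CTRL and from 533 over 1064 to 2127 CPM on D14 (log2FC -0.91 ± 0.16, adjusted p = 2.23e-06). All but 1 of the 12 mice lay below the CTRL range. The lipid enzymes and transporters moved less: Abca3 had 408, 494 and 598 CPM in CTRL against 232, 457 and 695 CPM on D14 (log2FC -0.20 ± 0.12, adjusted p = 0.149). Lpcat1 had 362, 420 and 486 CPM against 228, 351 and 612 CPM (log2FC -0.25 ± 0.13, adjusted p = 0.0783). Neither passed the test, and without D14 replicate 5, the mouse with the highest level of both, each was called lower (adjusted p = 0.0281 for Abca3 and 0.00909 for Lpcat1).

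Lamp3 and the transcription factor gene Etv5 fell on D14 too. Lamp3 ranged from 534 over 636 to 718 CPM in CTRL and from 101 over 420 to 634 CPM on D14 (log2FC -0.77 ± 0.20, adjusted p = 0.00071), and 9 of 12 mice lay below the CTRL range. Lamp3 is also known from mature dendritic cells. The 6 mature dendritic cell genes summed to 63.4 to 88.3 CPM in CTRL and to 131 to 296 CPM on D14. Of these 6 genes 5 were called higher, against 32.4% of all genes tested, and the defining gene Ccr7 was not called. The part of these genes in the level of Lamp3 was not tested. Etv5 ran from 107 over 119 to 143 CPM in CTRL and from 35.2 over 64.5 to 122 CPM on D14 (log2FC -0.84 ± 0.16, adjusted p = 7.68e-06).

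**Figure D1:**
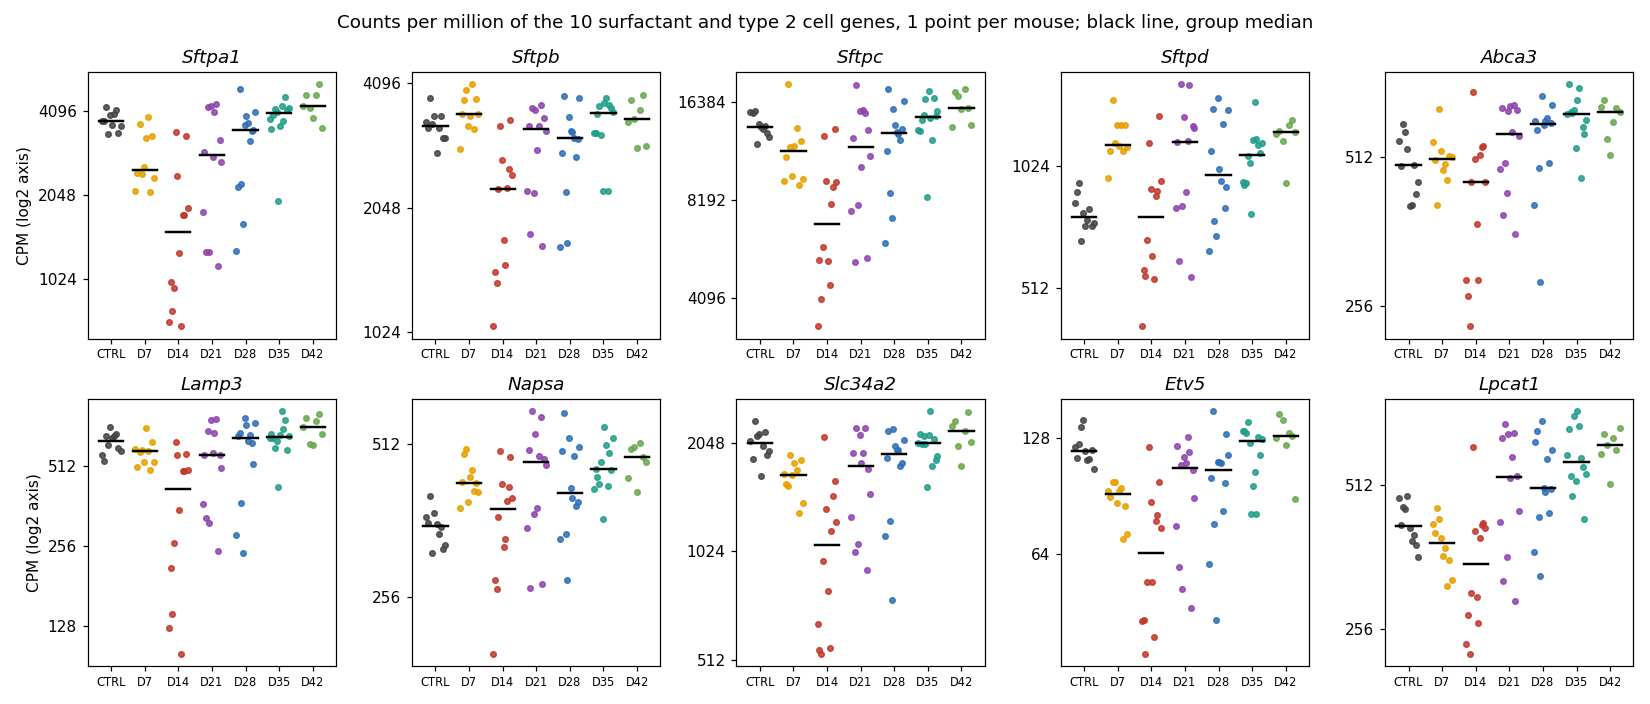
CPM on a log2 axis for each of the 10 genes, with 1 point per mouse (CTRL and D7, n = 10; D14, D21, D28 and D35, n = 12; D42, n = 7) and a black line at the group median. The D14 points spread from below the CTRL range up to the CTRL range or above it, while the D42 points sit close together, all above every CTRL mouse for Sftpd, Napsa and Lpcat1, a pattern that 4.22% of all genes tested showed.

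The first week looked different from the second. On D7 Sftpd and Napsa were higher than in CTRL and Etv5 was lower, which makes 2 members up and 1 down against 24.8% and 21% of all genes tested. Sftpd had 956, 1157 and 1491 CPM in the lowest, median and highest D7 mouse, so that each of the 10 D7 mice exceeded every CTRL mouse (log2FC 0.62 ± 0.16, adjusted p = 0.00119). Napsa had 383, 430 and 502 CPM, with 8 of 10 mice above the CTRL range (log2FC 0.31 ± 0.12, adjusted p = 0.0261). The call for Napsa was lost without D7 replicate 3 or without CTRL replicate 4, up to an adjusted p of 0.0575. Etv5 had 69.97, 91.7 and 98.8 CPM, and all 10 D7 mice lay below every CTRL mouse (log2FC -0.45 ± 0.17, adjusted p = 0.0233). Among all genes tested, 7.39% had every D7 mouse above CTRL and 3.8% had every D7 mouse below.

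Sftpa1 and Slc34a2 did not pass the test on D7, although 8 of 10 mice lay below the CTRL range for Sftpa1 (2103, 2526 and 3905 CPM; log2FC -0.43 ± 0.23, adjusted p = 0.12). When only the D7 and CTRL mice entered the fit, both were called lower (adjusted p = 0.00147 for Sftpa1 and 0.00113 for Slc34a2). Between D7 and D14, 6 members fell, namely Sftpa1, Sftpb, Sftpc, Sftpd, Lamp3 and Slc34a2, and none rose (DESeq2, 6 and 0; unadjusted p under 0.05, 8 and 0). Of all genes tested 7.55% fell and 9.48% rose between these days. The log2FC ranged from -0.77 for Sftpa1 to -0.11 for Lpcat1, which did not pass.

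From D21 the members were no longer called below CTRL. On D21 Sftpd (log2FC 0.49 ± 0.15, adjusted p = 0.00615) and Napsa (0.33 ± 0.11, adjusted p = 0.0119) were higher, 2 members against 28.3% of all genes, and none was lower against 25.8% (DESeq2, 0; unadjusted p under 0.05, 1, Etv5). The 12 D21 mice still ranged from 1139 over 2867 to 4340 CPM for Sftpa1 and from 5267 over 11940 to 18435 CPM for Sftpc. Thus 8 mice for Sftpa1 and 6 for Sftpc lay below all CTRL mice, while 3 and 2 mice lay above them. Etv5 narrowly missed the threshold (log2FC -0.36 ± 0.16, adjusted p = 0.0535) and was called lower when any 1 of 24 of the 75 mice was left out.

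On D28 the same genes, Sftpd (log2FC 0.41 ± 0.15, adjusted p = 0.0262) and Napsa (0.29 ± 0.11, adjusted p = 0.0313), were called higher, against 24.1% of all genes, and none was called lower against 19.2% (DESeq2 and unadjusted p under 0.05, 0). The Sftpd call was lost without D28 replicate 3, 6 or 12 or CTRL replicate 4 (adjusted p up to 0.0721), and that of Napsa without D28 replicate 2, 3, 6 or 12 or CTRL replicate 4, 7 or 9 (adjusted p up to 0.0751). On D35, 4 members were higher, against 16.9% of all genes, and none lower, against 13.1% (DESeq2 and unadjusted p under 0.05, 0). These were Sftpd (log2FC 0.46 ± 0.15, adjusted p = 0.017), Lpcat1 (0.46 ± 0.13, adjusted p = 0.00387), Napsa (0.40 ± 0.11, adjusted p = 0.0051) and Abca3 (0.31 ± 0.12, adjusted p = 0.0458). The Abca3 call rested close to the threshold and was lost when any 1 of 32 mice was left out.

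On D42 the collectin Sftpd, the protease Napsa and the lipid enzyme Lpcat1 were above CTRL, 3 members against 13.7% of all genes, and none was below, against 11% (DESeq2 and unadjusted p under 0.05, 0). In each of the 3 genes all 7 D42 mice exceeded all 10 CTRL mice. Sftpd had 932, 1245 and 1330 CPM in the lowest, median and highest D42 mouse (log2FC 0.62 ± 0.17, adjusted p = 0.00602). Napsa had 412, 484 and 515 CPM (log2FC 0.44 ± 0.13, adjusted p = 0.00912) and Lpcat1 had 513, 620 and 671 CPM (log2FC 0.53 ± 0.15, adjusted p = 0.00517). The 6 genes that were lower on D14 had log2FC of 0.05 (Sftpb) to 0.20 (Sftpc) on D42, and none passed the test. When only the D42 and CTRL mice entered the fit, 7 members were called higher, with Sftpa1, Sftpc, Abca3 and Lamp3 added.

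**Figure D2:**
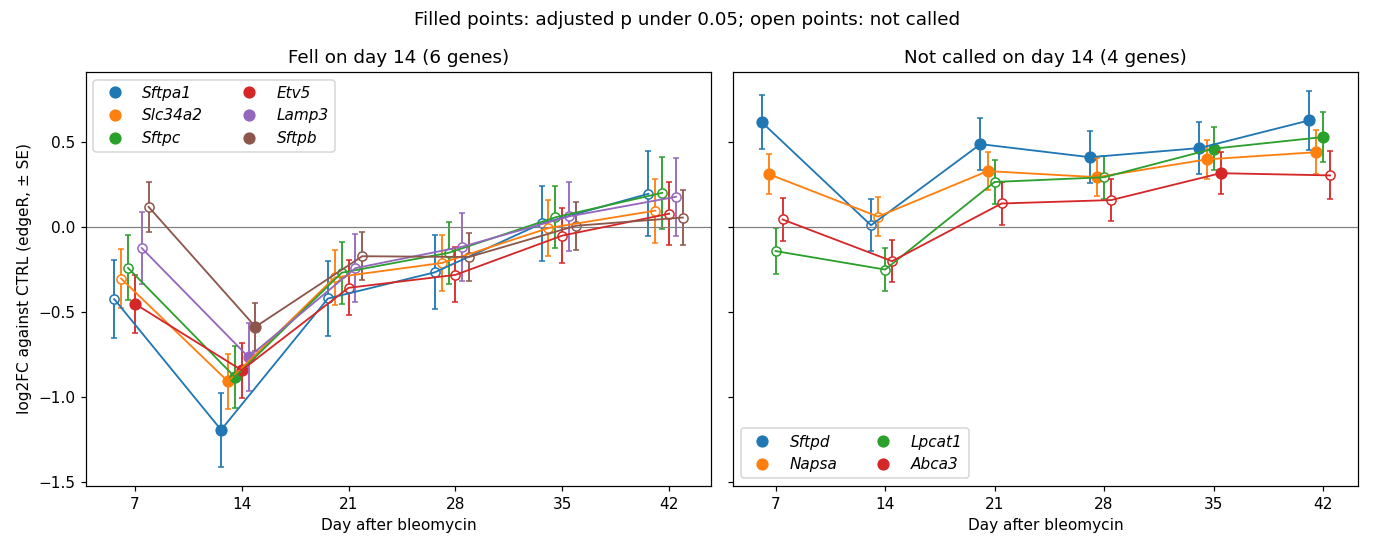
The log2FC against the 10 CTRL mice with its SE (edgeR) by day after bleomycin, for the 6 genes that fell on D14 (left) and the 4 that were not called on D14 (right). Filled points passed an adjusted p under 0.05. All genes are lowest on D14, between -1.19 and 0.06, and the right-hand genes lie above 0 from D21 on.

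The contrasts between bleomycin days do not use the CTRL mice. Between D14 and D42 all 10 members rose, against 15.2% of all genes tested. The log2FC ran from 0.38 ± 0.12 for Napsa (adjusted p = 0.0138) to 1.39 ± 0.24 for Sftpa1 (adjusted p = 5.7e-06), with 1.08 for Sftpc, 1.00 for Slc34a2 and 0.78 for Lpcat1. Each of these calls remained when any single mouse was left out. The D42 mice had survived to that day, and the part of survival in this rise was not tested. Between D14 and D21, 3 members, Sftpa1, Slc34a2 and Lpcat1, were called higher, against 0.45% of all genes, and none lower, against 0.579% (unadjusted p under 0.05, 10 up and 0 down; DESeq2, 4 up and 0 down). This count ran from 0 (without D14 replicate 1, 3 or 8 or D21 replicate 2 or 4) to 8 (without D14 replicate 5) when single mice were left out, and was 0 when only the D14 and D21 mice entered the fit. Between D21 and D28, D28 and D35, and D35 and D42 no member was called in either direction (edgeR and DESeq2, 0; unadjusted p under 0.05, 0), against 0.727%, 1.27% and 0% of all genes.

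Ordered by mean CPM, 8 of the 10 members were lowest on D14 and Sftpd and Napsa were lowest in CTRL. D42 held the highest mean for 8 members, D7 for Sftpb and D35 for Abca3. Most neighbours in these orders did not differ beyond their spread: of 60 neighbouring pairs of groups only 4 passed the test, namely D14 below D7 for Sftpa1 and Slc34a2, and D14 below D28 for Sftpb and Sftpd, where 11.4% of all genes tested were higher on D28.

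The spread between mice of one day was the second feature of the time course. In CTRL the coefficient of variation (CV, the SD as a percent of the mean CPM) of the 10 members lay between 7.60% (Sftpa1) and 13.9% (Abca3) with a median of 9.23%. The median CV was 11.7% on D7, 38.01% on D14, 30.2% on D21, 27.7% on D28, 15.95% on D35 and 10.8% on D42. The part of survival in the lower CV of later days was not tested. On D14 the CV reached 58.3% for Sftpa1, where the highest mouse had 4.99 times the CPM of the lowest. For Lamp3, with a CV of 52.4% on D14, the highest mouse had 6.29 times the CPM of the lowest. The median SD of log2 CPM over the members was 0.13 in CTRL and 0.55 on D14, whereas over all genes tested it was 0.17 in CTRL and 0.27 on D14.

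The mean absolute deviation of log2 CPM from the group median was tested against CTRL for each member and day (two-sided permutation tests, exact for D42, adjusted over 60 tests). It was larger in 9 of 10 members on D14, in 6 on D21 and in 2 on D28, and in none on D7, D35 or D42. The test was not run over all genes, so no share stands beside these counts. Their median SD of log2 CPM rose as well, from 0.169 in CTRL to 0.275 on D14, 0.225 on D21 and 0.258 on D28. On D14 the deviation of Sftpa1 was 0.70 against 0.09 in CTRL (adjusted permutation p = 0.0022), that of Lamp3 0.78 against 0.11 (adjusted permutation p = 0.00694) and that of Sftpc 0.56 against 0.09 (adjusted permutation p = 0.0022). Abca3 was the member that did not pass on D14 (difference 0.24, adjusted permutation p = 0.1). On D28 Sftpd and Napsa passed, and with library size as the only scaling the calls of Napsa on D28 and of Slc34a2 and Lpcat1 on D21 were lost. Taking deviations from the group mean raised the number of tests passed from 17 to 30 of 60.

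**Figure D3:**
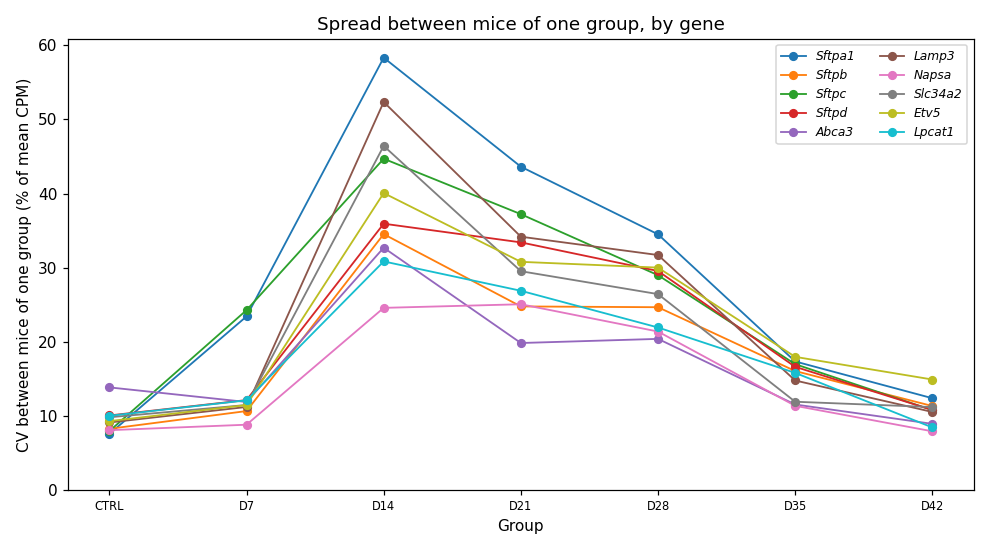
CV between the mice of a group, in percent of the mean CPM, for each of the 10 genes by group (n = 10, 10, 12, 12, 12, 12 and 7 mice from left to right). The lines start between 7.60% and 13.9% in CTRL, peak on D14 in all genes but Napsa and come back to 7.95% to 14.9% on D42.

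On D14, D21 and D28 mice that were low for one member tended to be low for the others. This did not hold for every member on other days. D7 replicate 3, for instance, was lowest for Abca3 and highest for Sftpc and Sftpd. On D14 the lowest value of each member belonged to replicate 1, 3 or 8, and replicate 5 held the highest for 7 of 10. D14 replicate 1, for example, had 3342 CPM of Sftpc and 126 CPM of Lamp3, while replicate 5 had 12870 CPM of Sftpc and 634 CPM of Lamp3. On D21 replicate 10 was lowest for 8 members, on D35 replicate 6 for 7 and on D28 replicate 5 for 6. Replicate numbers are names and do not link mice of different days.

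Within the 12 D14 mice, Pearson's r of each other member with Sftpc (log2 CPM) ran from 0.894 for Abca3 to 0.989 for Sftpd, and Spearman's rho from 0.867 to 0.979 (permutation tests adjusted over 63 relations, adjusted p of at most 0.000378 for r and 0.00152 for rho). Without the 2 mice farthest from the median of Sftpc, r still ran from 0.909 to 0.987. All 9 relations passed on D21 too (r 0.792 to 0.976) and on D28 (r 0.824 to 0.988). There they leaned more on the extreme mice, with r down to 0.488 and 0.666 without the 2 farthest. Without these mice Abca3 no longer passed on D21 (adjusted permutation p = 0.245) or D28 (0.0627), nor did Lpcat1 on D28 (0.0568), and by rho Abca3 did not pass on D21 (adjusted permutation p = 0.103). In CTRL 2 relations passed, with Sftpd (r 0.927, adjusted permutation p = 0.000175) and Napsa (r 0.869, adjusted permutation p = 0.00306, but 0.0577 without the 2 farthest mice), and 4 passed on D7, 4 on D35 and none on D42, where n was 7. Without the 2 farthest mice Sftpd and Napsa lost the call on D7, and Sftpb, Napsa and Slc34a2 on D35. Over all 45 pairs of members the median r was 0.419 in CTRL, 0.417 on D7, 0.928 on D14, 0.946 on D21, 0.877 on D28, 0.580 on D35 and 0.547 on D42. Members measured in the same library share its scaling, and a narrow range of values, as in CTRL, leaves little for a correlation to follow.

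**Figure D4:**
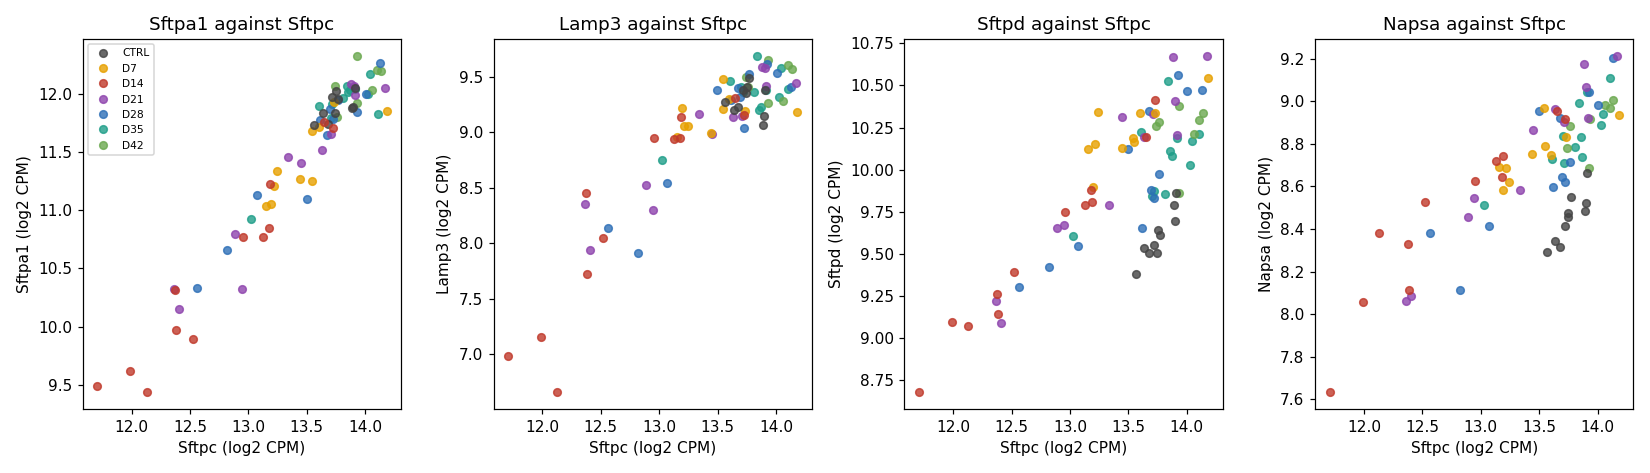
log2 CPM of Sftpa1, Lamp3, Sftpd and Napsa (vertical axes) against that of Sftpc (horizontal axis), with 1 point per mouse coloured by group. Within D14 (red) r with Sftpc was 0.967 for Sftpa1, 0.916 for Lamp3, 0.989 for Sftpd and 0.934 for Napsa, and the D42 mice lie above all CTRL mice for Sftpd and Napsa.

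The summed genes of some other lung cell types ran with or against Sftpc within the same days. These relations were added after the values had been seen, with summed CPM of 11 marker lists in each of 7 groups, which makes 77 relations. Those named here are a part of the relations that passed. The lists of transitional alveolar epithelium, alveolar macrophages, endothelial cells and T and B cells did not pass in any group. On D14 Sftpc ran with the sum of 8 pan-epithelial genes (r 0.944, rho 0.944, adjusted permutation p = 0.00077) and of 8 type 1 cell genes (r 0.837, rho 0.839, adjusted permutation p = 0.00813) and against the sum of 5 fibroblast genes (r -0.942, rho -0.930, adjusted permutation p = 0.00077) and of 7 monocyte-derived macrophage genes (r -0.936, rho -0.909, adjusted permutation p = 0.00115). Without the 2 mice farthest from the median of Sftpc these r were 0.910, 0.770, -0.897 and -0.915. On D21 the relation with the fibroblast genes was r -0.885 (rho -0.881, adjusted permutation p = 0.00431, r -0.795 without 2 mice) and on D28 it was r -0.860 (rho -0.657, adjusted permutation p = 0.00952, r -0.668 without 2 mice). The D28 relation did not pass by rho (adjusted permutation p = 0.108) or without the 2 mice (adjusted permutation p = 0.203). The relation with the type 1 cell genes on D14 passed by rho (adjusted permutation p = 0.0119) but not without the 2 mice (adjusted permutation p = 0.0822). Fewer mice raise p by themselves, so a call lost without the 2 mice does not show that a relation rests on them. The other relations named here still passed without the 2 mice. The fibroblast sum lay between 1316 and 1963 CPM in CTRL and between 3771 and 10752 CPM on D14. Of its 5 genes Col1a1 (log2FC 2.90), Col3a1 (2.49) and Pdgfra (0.38) were called higher on D14. Dcn (-0.04) and Col13a1 (-0.16) were not called, so the sum is not a count of fibroblasts. The pan-epithelial sum lay between 701 and 874 CPM in CTRL and between 523 and 822 CPM on D14. The macrophage sum lay between 127 and 212 CPM in CTRL and between 1350 and 9245 CPM on D14. Since CPM are shares of a library, a larger share for some genes lowers all others, and the part of these genes in the members' levels was not tested.

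**Figure D5:**
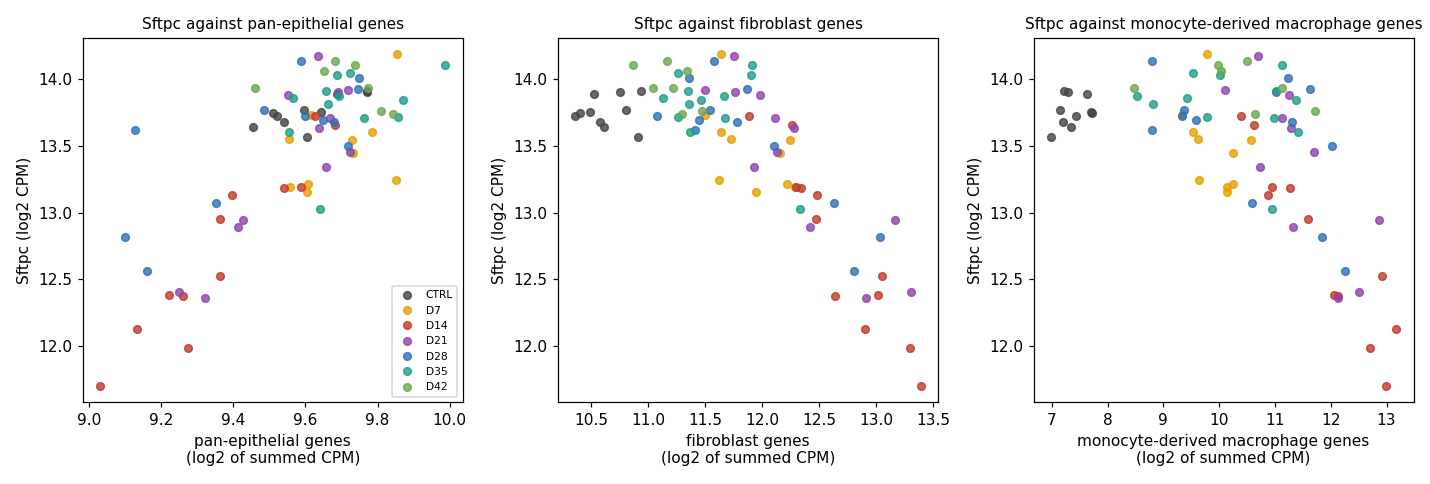
log2 CPM of Sftpc (vertical axes) against the log2 of the summed CPM of 8 pan-epithelial, 5 fibroblast and 7 monocyte-derived macrophage genes, 1 point per mouse coloured by group. Among the D14 mice (red) Sftpc follows the epithelial sum (r 0.944) and runs against the fibroblast (r -0.942) and macrophage sums (r -0.936), while the CTRL mice form a tight group.

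To set the members beside the epithelial share of each library, the log2 CPM of each member was set against the mean log2 CPM of the 8 pan-epithelial genes in the same mouse (two-sided permutation tests, exact for D42, adjusted over 60 tests). On D14 Sftpa1 was lower by this measure in each of the 12 mice than in any CTRL mouse (difference -1.23, adjusted permutation p = 0.00036). Slc34a2 (-0.87), Sftpc (-0.84), Lamp3 (-0.83), Etv5 (-0.77) and Sftpb (-0.49) were lower too, with adjusted permutation p of at most 0.00491. Napsa was higher relative to the epithelial genes (0.19, adjusted permutation p = 0.0326), a call that was lost against the median of these genes (0.11) or without Rab25 or Spint2, and Sftpd (0.11), Abca3 (-0.09) and Lpcat1 (-0.13) did not pass. On D42 Sftpd (0.46), Lpcat1 (0.36) and Napsa (0.27) were higher by this measure, and the 6 genes that fell on D14 did not pass. Over the 60 tests 20 were lower and 14 higher. Other genes were not set against this reference, so no share of all genes stands beside these counts. Of the 8 pan-epithelial genes themselves 3 were called lower on D14 and 3 higher on D35, so this reference moved as well. Among all genes tested with edgeR against CTRL, 29.9% were lower on D14 and 16.9% higher on D35.

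Members were also set against each other within each library, which no scaling between libraries can alter (two-sided permutation tests adjusted over 60). Against the median of the other 9 members 30 of 60 tests were lower and 7 higher, and against their mean 28 were lower and 22 higher. The median was the level of a single gene, Sftpd in 48.7% and Lamp3 in 32% of cases. For Abca3, Lamp3, Napsa, Etv5 and Lpcat1 that gene was Sftpd in 73 of 75 libraries, and for Sftpd it was Lamp3 in 48. The differences from the mean sum to about 0 over the members of a day. Both references are built from the members themselves, so agreement between them is not independent support. The sign of the difference changed with the reference in 19 of 60 tests, 4 of which were called in opposite directions, so a direction is given below only where both references gave it.

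By both references Sftpd was higher relative to the other members and Etv5 lower on each of the 6 days. Against the median, Etv5 was in most libraries set against Sftpd itself, so its fall by that measure includes the rise of Sftpd. For Sftpd the difference from CTRL on the log2 scale was 0.48 against the median (adjusted permutation p = 0.000277) and 0.67 against the mean on D14, and 0.45 and 0.40 on D42. In each of the 12 D14 mice Sftpd exceeded every CTRL mouse against the mean, but this held for only 6 of 12 mice against the median, so its ranges overlapped by that measure. For Etv5 the difference was -0.87 against the median (adjusted permutation p = 0.00015) and -0.30 against the mean on D14, and -0.56 and -0.22 on D42.

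Sftpa1 was lower by both references on D7, D14, D21 and D28, with -0.85 and -0.82 on D14, and did not pass on D42 by either. On D14 Sftpc (-0.46 and -0.38), Slc34a2 (-0.50 and -0.42) and Lamp3 (-0.93 and -0.37) were lower by both references as well. Sftpb was higher on D7 (0.23 and 0.20) and did not pass on D14 (-0.12 and 0.00).

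No direction can be given for Napsa, Abca3 and Lpcat1 on most days. Napsa was lower against the median on D7 (-0.30, adjusted permutation p = 0.00018) and D42 (-0.18, adjusted permutation p = 0.00178) and did not pass on the days between, with 0.09 on D14 (adjusted permutation p = 0.224), where 5 mice lay above and 1 below all CTRL mice. Against the mean it was higher on every day, with 0.42 on D7, 0.77 on D14 and 0.19 on D42. Lpcat1 on D14 was lower against the median (-0.23, adjusted permutation p = 0.014) and higher against the mean (0.41, adjusted permutation p = 0.000147). Abca3 had -0.19 against the median on D14 (adjusted permutation p = 0.0938) and was higher against the mean (0.45).

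Other genes of the type 2 cell were counted in 5 further lists. In the list of 10 transcription factors and growth factor receptors of type 2 cells, 9 were lower than CTRL on D14 and 1 was higher. Of all genes tested, 29.9% were lower and 32.4% higher on D14. The lower genes included Fgfr2, the receptor through which fibroblast growth factors maintain the epithelium (log2FC -1.29 ± 0.14, adjusted p = 2.4e-12), the forkhead factor gene Foxa1 (-1.19 ± 0.13, adjusted p = 3.04e-12), Klf5 (-0.70 ± 0.11, adjusted p = 4.71e-08) and Nkx2-1 (-0.58 ± 0.12, adjusted p = 1.96e-05). The gene that went the other way was Etv4, the close relative of Etv5 (3.95 ± 0.46, adjusted p = 4.34e-11). Etv4 was higher on D7 (2.84), D21 (3.47), D28 (2.93) and D35 (1.94) as well and did not pass on D42 (1.11, adjusted p = 0.142), while Etv5 was lower on D7 and D14. In the same list 4 genes were lower on D7, 6 on D21, 3 on D28 and 1, Foxa1, on D35 and on D42. The shares of all genes tested that were lower on D7, D21, D28, D35 and D42 were 21%, 25.8%, 19.2%, 13.1% and 11%.

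Of the 13 other type 2 cell genes 12 passed the filter on low counts. On D14 6 of these were lower and none higher (unadjusted p under 0.05, 0; DESeq2, 1, Dlk1, which the filter had removed), with a median log2FC of -0.43. Among all genes tested, 29.9% were lower and 32.4% higher on D14. The largest falls in the list were those of Bex2 (-2.52 ± 0.34, adjusted p = 2.1e-09), the lysozyme gene Lyz1 (-1.74 ± 0.35, adjusted p = 1.69e-05), Ppp1r14c (-1.13 ± 0.20, adjusted p = 2.29e-06) and Lgi3 (-0.99 ± 0.20, adjusted p = 1.35e-05). Bex2 stayed lower on all 6 days, with -2.09 on D42. Cxcl15, a chemokine of lung epithelium, resembled Sftpd: it was higher on D7 (0.62 ± 0.16, adjusted p = 0.00137), had a log2FC of 0.13 on D14 (adjusted p = 0.471), and was higher again on D21 (0.62) up to D42 (0.97 ± 0.18, adjusted p = 2.64e-05). On D42 S100g (0.69) and the tight junction gene Cldn18 (0.51) were higher too.

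Among 11 genes of surfactant processing, lamellar bodies and secretion, 4 were higher and 3 lower on D14. These counts lie near the shares of all genes tested, 32.4% higher and 29.9% lower on D14. Ctsh, whose protease cleaves the precursors of surfactant proteins B and C, was higher on each day, by 1.57 ± 0.14 on D14 (adjusted p = 1.32e-14) and by 0.80 ± 0.16 on D42 (adjusted p = 0.000121). P2ry2, the ATP receptor that triggers surfactant secretion, was likewise higher on each day, with 0.84 ± 0.14 on D14. Adgrf5, a receptor that limits the surfactant pool, was lower on D14 (-0.81 ± 0.14, adjusted p = 5.99e-07), as was the phospholipid flippase gene Atp8a1 (-0.51 ± 0.11, adjusted p = 6.55e-05). Macrophages and endothelium also express some of these genes. All 7 monocyte-derived macrophage genes were higher on D14. Of 5 endothelial genes 3 were lower and 1, Vwf, was higher (log2FC 0.56 ± 0.14, adjusted p = 0.00045). Their part in these changes was not tested.

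In the list of 14 genes of surfactant lipid synthesis 3 were higher and 6 lower on D14, and 4 were higher and none lower on D42 (DESeq2, 0; unadjusted p under 0.05, 1). Among all genes tested, 32.4% were higher and 29.9% lower on D14, and 13.7% were higher and 11% lower on D42. The desaturase gene Scd1 was higher on every day, with a log2FC of 1.00 ± 0.19 on D14 and 1.52 ± 0.22 on D42 (adjusted p = 1.65e-07). The fatty acid elongase gene Elovl1 was higher on every day but D14, and reached 0.85 ± 0.18 on D42. Fasn, the fatty acid synthase gene, was higher from D21 (0.52) to D42 (0.58). Chpt1, the last enzyme of the phosphatidylcholine pathway, was lower on D7 (-0.47), D14 (-0.63 ± 0.12, adjusted p = 1.2e-05) and D21 (-0.50).

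The genes outside all lists whose log2 CPM ran most closely with the mean of the standardised members over the 75 mice were Dram1 (r 0.946), Tmem50b (0.937), Prss8 (0.919), Irx3 (0.912), Slco4c1 (0.911), Syt7 (0.904), Zfp385b (0.899), Acsl5 (0.892), Tmem163 (0.888) and Mmp15 (0.887). These r describe the libraries, hold differences between days as well as between mice, and share each library's composition. With the group means removed they were 0.863 for Zfp385b to 0.938 for Tmem50b. Among the members themselves the r with the mean of the other 9 ran from 0.813 for Sftpd and 0.832 for Napsa to 0.948 for Slc34a2. With Sftpc alone the closest genes were Prss8 (0.932), Tmem50b (0.931) and Smim6 (0.931), followed by Irx3, Dram1, Exosc7, Irx5, Krt23, Gpt and Sfta2 (0.911). Prss8, which encodes the membrane protease prostasin, had mean CPM of 80.4 in CTRL, 47.4 on D14 and 80.1 on D42.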

How the data were processed

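Raw counts per gene were used as deposited by the authors, who had aligned 75 bp single-end reads of poly(A) libraries (NEBNext Ultra II Directional) with STAR 2.7.0f to GRCm38 and the Ensembl 96 annotation; the counting program, its strand setting and its treatment of multimapping reads are not given in the sources used here. All 55536 gene IDs matched the annotation. Read depth was 9240291 to 14665247 counts per mouse.

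Counts were filtered (filterByExpr, 16221 genes), scaled (TMM) and fitted with edgeR 4.0.16 (R 4.3.3) over all 75 mice and 7 groups, with the quasi-likelihood F test and Benjamini-Hochberg adjustment over all genes (threshold 0.05). SE were derived from the log2FC and F. log2 CPM used a prior count of 2. The edgeR and permutation steps were tested on simulated data. Levels within a library, spread and correlations were tested by permutation with 100000 resamples, or exactly where a group had fewer than 10 mice (Python 3.11.15, scipy 1.17.1). A p of 1e-05 is the smallest that these resamples can give. Alternatives were DESeq2 1.42.0, other scalings and filters, the 2 groups compared alone, a replicate block, replicates 1 to 7, a log2FC of at least 0.5 and leaving out each mouse. The lowest chi-square per degree of freedom among 375 pairs of mice of one group was 3.88, so no library was counted as a copy of another. p-values rest on the spread between mice. The edgeR fit used 1 estimate of spread per gene for all 7 groups, so each comparison also drew on mice of the other groups. That spread was not equal: the median SD of log2 CPM over the members was 0.13 in CTRL, 0.16 on D42 and 0.55 on D14.

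The members and the 17 gene lists were chosen with earlier results of these data known. All members were described; of each pathway list, up to 4 of the called genes with the largest change per day and those against the majority could be named; the genes most like the members were the 10 outside all lists with the highest r. A gene named on one day was also given on other days. No batch is labelled.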

Additional observations from a re-analysis of the deposited data

Results flagged for a closer look

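In groups of 7 to 10 mice, 30 combinations of member and group were screened for a mouse far from the others (Dixon's criterion on log2 CPM at its 95% critical value), and 2 stood out; chance alone flags about 1 in 20 such groups. The lowest D42 mouse for Sftpd, replicate 4, had a log2 CPM of 9.86 (932 CPM), and its gap to the next mouse was 0.676 of the group's range. The lowest D42 mouse for Etv5, replicate 7, had a log2 CPM of 6.48 (89.1 CPM), with a gap of 0.633 of the range. Leaving out either mouse changed the call of neither gene on D42. The groups of 12 mice, in which the members spread most, were too large for this criterion.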

How the results depend on the processing

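No log2FC of a member that passed the test in either fit changed sign under any alternative. Of 120 calls of a member in a comparison, DESeq2 left 119 on their side of the threshold, library size as the only scaling 119, at least 10 counts in every mouse 119, upper quartile factors 118, a fit of only the 2 groups compared 108, leaving out the filter on low counts 114, a log2FC of at least 0.5 108 and replicates 1 to 7 of each group 106. Without a filter on low counts the members called higher were 1 on D7 (main value 2), 0 on D28 (2) and 1 between D14 and D21 (3). With replicates 1 to 7 they were 1 on D7, 0 on D21 (2), 0 on D28, 1 on D35 (4) and 0 between D14 and D21, and 0 members were lower on D7 (1). With a log2FC of at least 0.5 they were 1 on D7 and 0 on D21, D28 and D35, with 0 lower on D7. With only the 2 groups compared, 3 members were lower on D7, 1 was lower on D21 (0), 7 were higher on D42 (3) and 0 were higher between D14 and D21. With upper quartile factors, and with at least 10 counts in every mouse, 1 member was lower on D21. For the 5 pathway lists together, the genes lower on D7 (12) were 21 with only the 2 groups and 6 at a log2FC of at least 0.5. That threshold left 8 higher on D14 (14), 6 lower on D21 (17), 4 lower on D28 (8), 11 higher (19) and 1 lower (4) on D35. Replicates 1 to 7 left 11 lower on D21, 2 on D35 and 1 on D42 (3), where only the 2 groups gave 6. Deviations from the group mean gave 30 tests of larger spread (17), and the mean of the other 9 members as reference gave 22 higher (7). With that mean 16 of the 60 differences changed sign from negative to positive where at least 1 reference called them: Abca3 had 0.13, 0.45, 0.27, 0.22, 0.18 and 0.0472 on D7 to D42, Napsa 0.42, 0.45, 0.36, 0.26 and 0.19 on D7 and D21 to D42, and Lpcat1 0.41, 0.38, 0.36, 0.32 and 0.29 on D14 to D42. Abca3 on D21, Napsa on D7 and D42 and Lpcat1 on D14 were called in opposite directions. Of 63 correlations with Sftpc 9 lost and 1 gained their call without the 2 farthest mice. No other test of spread, of the level relative to epithelial genes or of a correlation was both called and changed sign. The causes were not tested, except that fewer mice or a stricter threshold by construction leave fewer calls.

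When each mouse was left out in turn, the members called higher ran from 1 to 2 on D7, 2 to 3 on D21, 0 to 3 on D28, 3 to 4 on D35, 3 to 3 on D42 and 0 to 8 between D14 and D21. Those called lower ran from 6 to 8 on D14, 6 to 8 between D7 and D14 and 0 to 1 on D21.

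The replicate numbers do not pair the mice: deviations from the group means had a median r of -0.008 over 204 pairs with the same number and 0.005 over 2196 pairs with different numbers. With the replicate number as a block, 114 of the 120 calls stood, 0 members were higher on D28 and 2 were lower on D21. Counting error was small beside the spread between mice, so precision is set by the 7 to 12 mice per group.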

Other observations

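Genes of the surrounding alveolus and airway changed beside the members. Of all genes tested, 24.8%, 32.4%, 28.3%, 24.1%, 16.9% and 13.7% were higher than in CTRL on D7, D14, D21, D28, D35 and D42. The shares that were lower on these days were 21%, 29.9%, 25.8%, 19.2%, 13.1% and 11%. All counts of list genes given below stand beside these shares. The single genes named here from marker lists were chosen after their values were seen. All 8 genes of the transitional alveolar epithelium, the state between type 2 and type 1 cells, were higher than in CTRL on D7, 7 of 8 on D14, D21 and D28 and 5 of 8 on D35 and D42, and none was lower on any day (DESeq2 and unadjusted p under 0.05, 0). Cldn4, a tight junction gene, had a log2FC of 2.95 ± 0.36 on D7 (edgeR adjusted p = 4.83e-10) and 3.21 ± 0.35 on D14, and Krt8 had 1.01 ± 0.12 on D7 (adjusted p = 3.15e-10) and 0.60 ± 0.12 on D14. Their summed CPM was highest on D7, with a median of 1778 CPM against 932 CPM in CTRL, a day on which Sftpd and Napsa were higher and Sftpc, Sftpb and Lamp3 were not called. Of the 8 type 1 cell genes 5 were lower and 1, Pdpn, was higher on D14.

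Macrophage genes that take part in surfactant clearance were mostly higher. Of 7 genes, 3 were higher on D7, 6 on D14, D21, D28 and D35 and 5 on D42. Csf2rb, a receptor chain for the growth factor GM-CSF, had a log2FC of 1.57 ± 0.19 on D14 and 1.30 ± 0.21 on D42 (adjusted p = 1.95e-06), and the lysosomal lipase gene Lipa had 1.05 ± 0.12 and 0.87 ± 0.13. Csf2, the gene of GM-CSF itself, went the other way on D14 (-0.86 ± 0.21, adjusted p = 0.00038) and did not pass on the other days. All 7 monocyte-derived macrophage genes were higher on D7 to D35 and 6 of 7 on D42, while of 6 alveolar macrophage genes 2 were higher and 3 lower on D14.

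Airway epithelial genes were lower in the same weeks. All 5 ciliated cell genes were lower on D14, D21 and D28 and 2 of 5 on D42, and 3 of 5 club cell genes were lower on D14, D21 and D28. The summed club cell genes had a median of 26069 CPM in CTRL, 7127 CPM on D14 and 15700 CPM on D42. No club cell gene was called lower on D42 (DESeq2, 1; unadjusted p under 0.05, 2), and Bpifa1 was higher on D14 (2.76 ± 0.91, adjusted p = 0.00683). Of 6 T and B cell genes 3 were lower on D7, D14 and D21, and of 5 fibroblast genes 3 were higher on D14 and 1 on D42.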
